A study of Gallus gallus with 6 samples.

Results

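Genes whose values in chicken forelimb bud tissue were lower in every library beside an FGF2 bead than in any library beside a PBS bead, by a set gap, are described here. The members were chosen by their RPKM values (reads per kilobase of gene model, scaled to the total of reads counted in the library). A gene was a member if it averaged 1 RPKM or more over the 6 libraries and if its smallest PBS value was at least 25% above its largest FGF2 value. A gene listed at 0 in all 3 FGF2 libraries counted as a member if every PBS value was above 0. The rule was met by 71 of the 24881 Ensembl gene IDs listed, and thus by 0.599% of the 11847 IDs that averaged 1 RPKM or more. The rule uses the treatment contrast itself, so the differences between FGF2 and PBS below are descriptions of how the members were chosen, and none of them is a test of the treatment.

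The FGF2 tissue came from embryos at stage HH23 that received a bead soaked in FGF2 in the posterior mesoderm of the limb bud, and the controls received a bead soaked in PBS at the same place. Both were harvested after 3 h. Each library held RNA pooled from 15 to 20 limbs, a pool that the authors' paper gives as 15 to 20 embryos. There were 3 FGF2 and 3 PBS libraries from 3 independent experiments. The labels give no other treatment, strain or sex. The tissue lay directly behind the bead, on its posterior side, and was not sorted into cell types, so it could hold mesenchyme, ectoderm, vessels and blood, and fewer cells of a type cannot be told apart from less RNA per cell.

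Fibroblast growth factors from the apical ectodermal ridge, the thickened epithelium at the tip of the limb bud, keep the underlying mesenchyme growing and undifferentiated. They act through receptor tyrosine kinases and the MAP kinase cascade, which switches on early transcription factors and feedback inhibitors within hours. FGF signals also oppose genes of the proximal limb and maintain Sonic hedgehog in the posterior mesenchyme. The deposited values are listed by Ensembl ID without names, and the RefSeq table used here holds 25635 genes of which 0 carry such an ID. No member could therefore be given a gene name, a function or a sequence, and the tissue could not be checked against its marker genes. Only 2 members are given by ID: the member with the highest mean, and the higher of the 2 members with a mean of at least 5 RPKM that were listed at 0 in all FGF2 libraries, for which no ratio between the groups can be formed. The others are identified by their rank in mean RPKM.

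The number of reads behind a value limits how firmly it can be read. As recovered from the steps between low RPKM values, the FGF2 libraries held between 15318608 and 21359458 reads and the PBS libraries between 5222427 and 16883479. PBS library 1 was the shallowest. The number of IDs above 0 did not follow depth: it was 15823, 13202 and 13744 in FGF2 libraries 1, 2 and 3. In PBS libraries 1, 2 and 3 it was 14664, 12252 and 14500. The cause was not tested. A single read per kilobase equalled 0.0468 RPKM in the deepest library, FGF2 library 2, and 0.191 RPKM in PBS library 1. The fewest reads of the PBS libraries were in PBS library 1 for 67 of the 71 members. The same count over all genes was not made.

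The members were mostly low genes. Their median mean level was 3.80 RPKM, against 8.81 RPKM for all 11847 genes that averaged 1 RPKM or more. A mean of 10 RPKM or more was reached by 20 members, a mean between 5 and 10 RPKM by 10 members, and 41 members were below 5 RPKM. Summed over the 71 members, the level was 469.5, 410.1 and 357.0 RPKM in FGF2 libraries 1, 2 and 3, against 1046.9, 1063.6 and 923.5 RPKM in the PBS libraries. The median member stood at 1.35, 1.17 and 0.710 RPKM in the FGF2 libraries and at 4.32, 7.12 and 4.30 RPKM in the PBS libraries. All 71 members reached a mean of 1 RPKM in PBS, which the rule fixes. In FGF2, the mean was under 1 RPKM for 33 members and under 0.5 RPKM for 23, so these met the floor on the level through their PBS libraries.

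**Figure D1:**
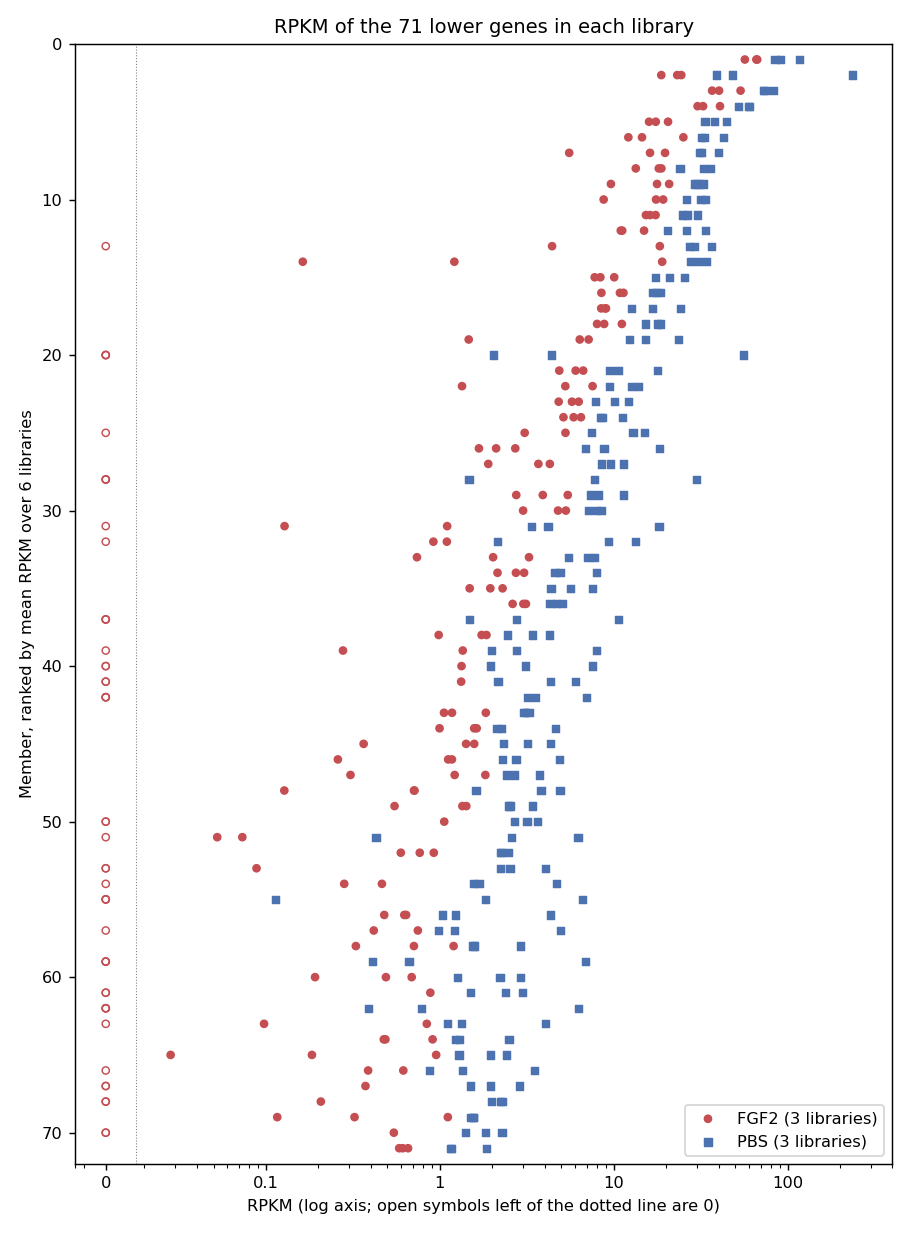
RPKM on a log axis for the 71 members (rows, ranked by mean), with circles for the 3 FGF2 libraries and squares for the 3 PBS libraries; open circles left of the dotted line are values of 0. The groups do not overlap in any row, which the rule fixes, and the FGF2 values of 0 lie mostly among the low members.

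Groups without overlap were also seen in genes that missed the gap of 25%. Among the same 11847 genes, every FGF2 library was below every PBS library in 244 (2.06%), and the 71 members are the part of these with the widest gap. In the opposite direction, the lowest FGF2 value exceeded the highest PBS value in 840 genes (7.09%), and 220 genes (1.86%) met the rule with the groups exchanged. This balance depended on the scaling. After median-ratio scaling of the libraries 124 genes (1.05%) met the rule and 154 (1.3%) met it with the groups exchanged, so that lower genes made up 44.6% of both sets together, against 24.4% as deposited. The median-ratio factor of FGF2 library 1 was 1.21, and those of the other 5 libraries ran from 0.931 to 1.06. Of the 71 members, 66 still met the rule after this scaling and 58 genes joined them. The groups of all 71 remained without overlap. The 5 members that dropped out had a smallest PBS value of 1.251 to 1.279 times the largest FGF2 value as deposited.

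**Figure D2:**
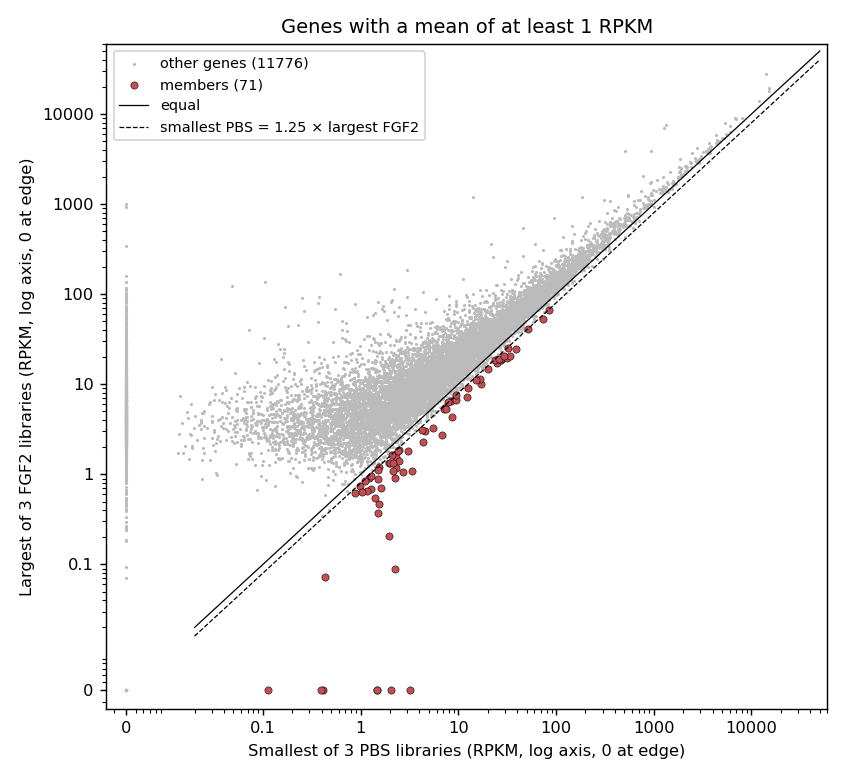
Largest FGF2 value against smallest PBS value (RPKM, log axes, values of 0 at the edge) for the 11847 genes that averaged 1 RPKM or more. Grey points are 11776 other genes, red points are the 71 members, the solid line marks equal values and the dashed line the gap of 25%; the members lie below the dashed line and most of them are close to it.

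ENSGALG00000035239 was the member with the highest level. It had 66.8, 66.0 and 56.7 RPKM in FGF2 libraries 1, 2 and 3, against 84.4, 117 and 90.6 RPKM in the PBS libraries in the same order. The FGF2 libraries were close together, and PBS library 2 was the highest of the 6. The means were 63.2 ± 5.61 RPKM with FGF2 and 97.2 ± 17.1 RPKM with PBS (SD, n = 3 libraries each). The PBS mean was 1.54 times the FGF2 mean. Between 1871 and 8281 reads stood behind each of its values, in a gene model of 4244 bases. Its log2 difference of FGF2 to PBS on the log2(RPKM + 0.5) scale was -0.61 (standard error 0.20, adjusted p = 1.0 from limma). Its ratio of means was the smallest among the 20 members with a mean of at least 10 RPKM, and its smallest PBS value, at 1.26 times the largest FGF2 value, was just inside the rule. It was 1 of the 5 members that no longer met the rule after median-ratio scaling, although its difference was then -0.74.

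The next members in level differed in how steady they were. The member ranked 2 in mean level had 18.8, 23.2 and 24.4 RPKM in the FGF2 libraries and 236, 39.1 and 48.2 RPKM in the PBS libraries. PBS library 1 alone was 4.90 times the next PBS library in this gene, and the ratio of its PBS to FGF2 means, 4.88, includes that library. The smallest PBS value, in library 2, was 1.60 times the largest FGF2 value. The member ranked 3 had 53.6, 40.3 and 36.8 RPKM with FGF2, against 73.6, 72.8 and 82.2 RPKM with PBS. The member ranked 4 had 40.8, 32.6 and 30.3 RPKM with FGF2, against 60.6, 59.3 and 52.3 RPKM with PBS. In both of these genes the PBS libraries were nearly level, FGF2 library 1 was the highest of the FGF2 libraries, and the ratios of PBS to FGF2 means were 1.75 and 1.66. The member ranked 5 had 20.5, 17.4 and 15.95 RPKM with FGF2, against 44.5, 38.0 and 33.5 RPKM with PBS, a ratio of 2.15. Its difference was nearly the same in each pair of libraries with the same number, at -1.10, -1.10 and -1.05 on the log2(RPKM + 0.5) scale. The members ranked 6 and 7 were less even with FGF2. Rank 6 had 14.5, 25.1 and 12.1 RPKM with FGF2, against 33.3, 42.8 and 32.0 RPKM with PBS. Rank 7 had 19.7, 5.54 and 16.2 RPKM with FGF2, against 31.2, 40.0 and 31.8 RPKM with PBS.

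Steady values within both treatments were found in 11 of the 71 members, in which the highest library was within 1.5 times the lowest within FGF2 and within PBS. The share of all genes with such steady values was not counted. The 11 steady members included those ranked 1, 3, 4, 5 and 8, and the ratios of PBS to FGF2 means of the 11 reached at most 2.43. The highest of these ratios belonged to the member ranked 15, with 10.1, 7.77 and 8.37 RPKM with FGF2 against 20.9, 17.3 and 25.5 RPKM with PBS. The member ranked 8 had 18.1, 18.8 and 13.4 RPKM with FGF2, against 32.6, 35.9 and 24.0 RPKM with PBS, with library 3 the lowest in both treatments. For 9 of the 11 the gap was also larger than the counting error, as described below.

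Another 7 members were steady in PBS but differed more than 4 times among the FGF2 libraries, or were at 0 in at least 1 of them. For this pattern, too, the share of all genes was not counted. The member ranked 13 had 18.4, 4.42 and 0 RPKM in the FGF2 libraries, which are 215, 72 and 0 reads, against 36.6, 27.3 and 29.1 RPKM in the PBS libraries. The member ranked 14 had 1.21, 0.163 and 19.0 RPKM with FGF2, which are 16, 3 and 324 reads, against 30.2, 33.9 and 27.6 RPKM with PBS. FGF2 library 2 was low in both genes, whereas FGF2 library 3 was the lowest in the first and the highest in the second. The ratio of PBS to FGF2 means was 4.08 and 4.51 in these members, above that of every steady member, and in both the lowest PBS value was less than 1.5 times the highest FGF2 value.

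Values of 0 were common on the FGF2 side, which the rule favors, since it selects low FGF2 values and allows no PBS value of 0. At least 1 FGF2 library was at 0 in 25 members: 10 members were at 0 in 1 library, 8 in 2 libraries and 7 in all 3. By library, 8 members (11.3%) were at 0 in FGF2 library 1, 15 (21.1%) in FGF2 library 2 and 24 (33.8%) in FGF2 library 3. Over the 11847 genes these shares were 2.46%, 6.12% and 4.28%, and in PBS libraries 1, 2 and 3 they were 3.38%, 8.99% and 2.60%. The higher shares among the members describe how they were chosen. Among the FGF2 libraries, library 3 thus held the most members at 0, while library 2 held the most of all genes at 0. Both were deeper than any PBS library, and the part of depth in these shares was not tested.

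The 7 members at 0 in all FGF2 libraries rested on few reads. Their gene models were short, at 87 to 523 bases, and their smallest PBS value came from 1 to 7 reads. ENSGALG00000025337 had the highest level among them. It was listed at 0 RPKM in FGF2 libraries 1, 2 and 3, against 4.40, 55.7 and 2.04 RPKM in the PBS libraries. In its gene model of 87 bases these PBS values are 2, 81 and 3 reads, so PBS library 2 carried nearly all of the signal. A count of 0 in FGF2 library 1 allows up to 2.25 RPKM (3 reads), which is above the value in PBS library 3. Against this limit the PBS mean of 20.7 ± 30.3 RPKM (SD, n = 3 libraries) was at least 9.20-fold higher, and at least 1.43-fold higher without PBS library 2. The fitted log2 difference of this gene was -4.15, with a standard error of 1.09 and an adjusted p of 1.0 from limma. With FGF2 at 0 this size depends on the pseudocount: it was -6.35 with 0.1 RPKM added and -3.29 with 1 RPKM added. Without PBS library 2 it was -2.82.

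In 6 of these 7 members PBS library 2 was the highest, and in the other 1 it was PBS library 1. The member ranked 28 had 1, 65 and 17 reads in PBS libraries 1, 2 and 3, which are 1.47, 29.9 and 7.75 RPKM. Only the member ranked 42 stood above the FGF2 limits in every PBS library. It had 7, 49 and 25 reads in PBS libraries 1, 2 and 3, or 3.20, 6.99 and 3.53 RPKM, against an FGF2 limit of at most 0.467 RPKM, and its PBS mean was at least 9.79-fold higher. For the other 6, at least 1 PBS library was no higher than an FGF2 library with 0 reads could be.

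Counting error was then set against the gap of every member. Exact Poisson intervals (95%) were taken for the reads of each library, and a gap was called larger than the counting error when the lowest PBS bound was above the highest FGF2 bound. These intervals cover counting error only. Reads are not independent molecules, so the intervals can be too narrow even for that, and the counts below too high. The gap was larger than the counting error in 31 of the 71 members (43.7%) and within it in 40. Over the 11847 genes it could be larger only in the 244 (2.06%) with every FGF2 library below every PBS library. This is an upper limit for all genes and not the share itself, which was not counted. The rule already required a gap of each member, so these counts are descriptions of the members. It was larger in 18 of the 20 members that averaged 10 RPKM or more, in 4 of the 10 between 5 and 10 RPKM, and in 9 of the 41 below 5 RPKM. The 18 include the members ranked 13 and 14, whose FGF2 libraries ran from 0 to 215 and from 3 to 324 reads. That spread within FGF2 lies outside the counting error. In 17 members the PBS library with the fewest reads held under 10 reads, and in 7 it held 3 or fewer. Among the 220 genes that met the rule with the groups exchanged, the gap was larger than the counting error in 113 (51.4%). These genes were higher in level, with a median mean of 7.02 RPKM against 3.80 RPKM for the members. A mean of 10 RPKM or more was reached by 38.6% of them, against 28.2% of the members. The part of level in the difference between the shares was not tested.

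**Figure D3:**
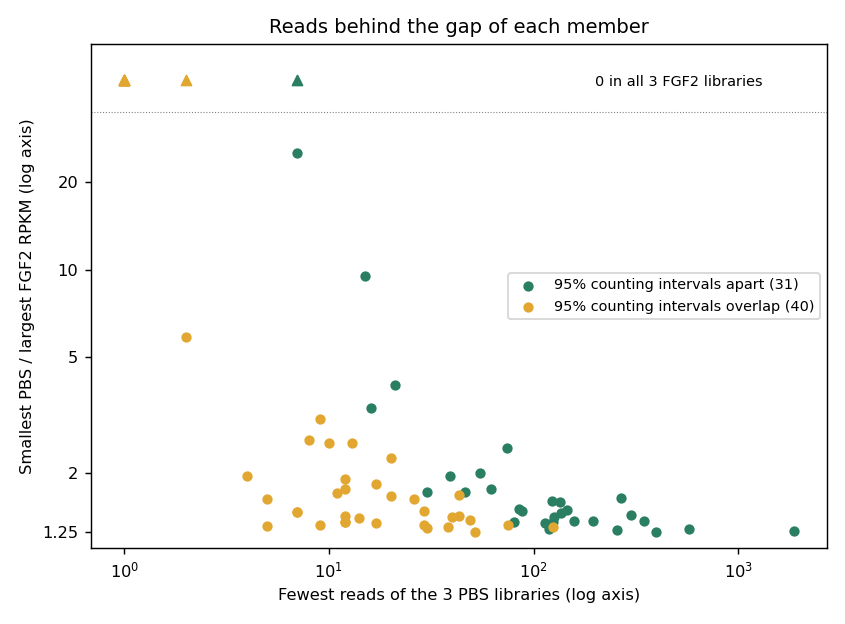
Gap of each member (smallest PBS over largest FGF2 value, log axis) against its fewest reads in a PBS library (log axis); triangles above the dotted line are the 7 members at 0 in all FGF2 libraries. Green points are the 31 members whose 95% counting intervals were apart, yellow points the 40 whose intervals overlapped; the widest gaps stand at the left, on few reads.

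The widest gaps were found in members of low level. The mean level includes the FGF2 values that also form the gap, so level and gap are not independent of each other. Beside the 7 members at 0 in all FGF2 libraries, which averaged at most 10.4 RPKM, a smallest PBS value of at least 2 times the largest FGF2 value was found in 11 members, with means of 1.01 to 6.73 RPKM. Of these 11, 8 were at 0 in at least 1 FGF2 library, and in 5 the gap was larger than the counting error. The member ranked 68 had 4, 0 and 0 reads with FGF2, against 15, 47 and 42 reads with PBS, and its smallest PBS value was 9.53 times its largest FGF2 value. The member ranked 53 had 0, 1 and 0 reads with FGF2, against 7, 36 and 20 reads with PBS. Both of these low genes were apart by more than the counting error. The median of this ratio over the 64 members with an FGF2 value above 0 was 1.47. The ratio of PBS to FGF2 means ran from 1.54 to 4.88 in the members with a mean of at least 10 RPKM that were above 0 in FGF2 (median 2.03, 19 members), and from 1.60 to 20.9 in 30 of those below 5 RPKM (median 3.58). Another 6 members below 5 RPKM had an FGF2 mean above 0 but no higher than the highest limit of 3 reads in their FGF2 libraries, and no ratio is given for them. Over all 71, with every member at or under its limit set to it, the median ratio was 3.05.

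At the edge of the rule, the 3 members just inside had largest FGF2 and smallest PBS values of 7.55 and 9.45, 6.28 and 7.88, and 66.8 and 84.4 RPKM. The 3 genes just outside had 1.41 and 1.76, 1.16 and 1.45, and 12.3 and 15.3 RPKM. The ratios were 1.251, 1.254 and 1.264 inside and 1.247, 1.245 and 1.242 outside, so the boundary passes through genes that hardly differ in their gap.

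The members did not follow a common pattern among the PBS libraries, but PBS library 2 was most often the highest. It was the highest of the 3 in 39 members (54.9%), against 29.9% of all 11847 genes. PBS library 1 was the highest in 12 members (16.9%), against 38.8% of all genes, and PBS library 3 in 20 members (28.2%), against 30.9%. In 11 members the highest PBS library was over 3 times the next, 8 times in PBS library 2 and 3 times in PBS library 1. These were mostly low members, with a median mean level of 1.43 RPKM, and in 1 of the 11 the gap was larger than the counting error. How many of all genes had a PBS library that far above the next was not counted. In the median member the highest PBS library was 1.74 times the lowest, against 1.80 times in the 10554 genes above 0 in every PBS library. The rule uses the smallest PBS value, so this spread is not independent of how the members were chosen.

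Among the FGF2 libraries, library 1 was most often the highest and library 3 most often the lowest. FGF2 library 1 was the highest in 41 members (57.7%), against 47.3% of all genes. FGF2 library 3 was the lowest without a tie in 36 members (50.7%), against 27.7% of all genes. The rule limits the largest FGF2 value, so these shares are not independent of how the members were chosen. The difference between libraries with the same number followed the order of the FGF2 libraries. On the log2(RPKM + 0.5) scale the median member differed by -0.80 between FGF2 and PBS libraries 1 (quartiles -1.22 and -0.55), by -1.36 between libraries 2 (-2.55 and -0.88) and by -1.52 between libraries 3 (-2.50 and -0.91). The other 11776 genes had medians of 0.22, 0.03 and 0.06. The difference was smallest between libraries 1 in 47 of the 71 members, in 11 between libraries 2 and in 13 between libraries 3. The same count over all genes was not made, and the median of the other genes was also highest between libraries 1. Beside the smaller difference between libraries 1 stands the median-ratio factor of 1.21 of FGF2 library 1. Its part in the smaller difference was not tested.

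**Figure D4:**
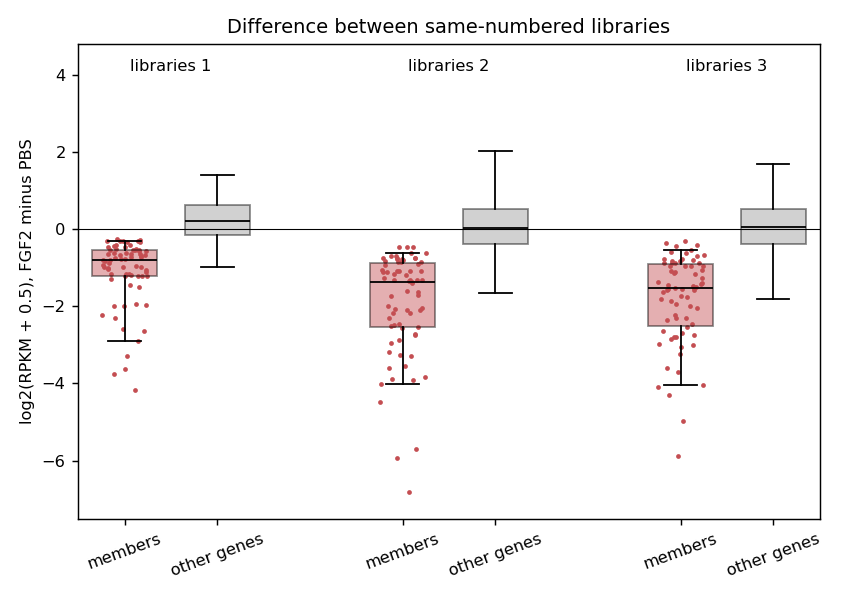
Difference of log2(RPKM + 0.5), FGF2 minus PBS, between libraries with the same number, for the 71 members (red, points and boxes) and the 11776 other genes (grey). Boxes span the quartiles with the median as a line and whiskers the 5th to 95th percentiles; the members lie below 0 in all 3 pairs, which the rule fixes, and least so in libraries 1 (median -0.80).

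The gene models of the members, as recovered from the RPKM, were shorter than usual, a feature that the rule did not use directly. Their median length was 1233 bases (87 to 7502), against 1856 bases for all 11847 genes and 1880 bases for the 220 genes that met the rule with the groups exchanged. Under 200 bases were 6 of the 71 members (8.45%) and 294 of the 11847 genes (2.48%). Of these 6 short members, 4 were at 0 in all FGF2 libraries, and in 1, the member ranked 2, with 188 bases, the gap was larger than the counting error. A recovered length comes out too small where all reads of a gene share a factor. A count of 0 does not constrain the length, so members at 0 with FGF2 are more open to this error. At a given RPKM a short gene model holds few reads. Across the levels, length and reads did not move together. The median length was 879.5 bases in members of 10 RPKM or more, 1143.5 between 5 and 10 RPKM, and 1407 below 5 RPKM. The median of the fewest PBS reads was 135.5, 53.5 and 12 in the same order. The part of few reads in the shorter lengths was not tested.

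In limma, 0 of the 13381 genes that averaged 0.5 RPKM or more were lower with FGF2 at an adjusted p under 0.05, and 0 were higher. At an unadjusted p under 0.05, 118 genes were lower (0.882%) and 2.53% were higher. The lower ones included 46 of the 71 members, among them all 20 with a mean of at least 10 RPKM. The rule used this contrast, so this count is a description. Unchanged genes can also reach an unadjusted p under 0.05 in limma, so the shares above are not counts of genes that FGF2 changed. The fitted log2 differences of the members ran from -4.15 to -0.60 with a median of -1.45, against a median of 0.11 over all genes tested. After median-ratio scaling, which brought the median of all genes to -0.01, that of the members was -1.52. With the replicate number as a block, 370 genes were lower at an unadjusted p under 0.05 (2.77%), 54 of them members, and 5.63% were higher, and again 0 passed at an adjusted p. At an unadjusted p under 0.05, limma-voom on the recovered reads gave 41 members lower, against 1.1% of genes lower and 3.14% higher. With the block it gave 47 members, against 3.17% of genes lower and 6.32% higher. The block in limma-voom on the recovered reads gave 26 lower genes and 14 higher genes at an adjusted p under 0.05 (0.194% and 0.105%), and 0 of the lower ones were members; without the block, limma-voom gave 0 lower genes at an adjusted p. In none of the 26 lower genes were the FGF2 and PBS libraries without overlap, whereas the rule requires this of the members. At the adjusted threshold the paired test and the rule thus chose separate genes, while 47 members were lower in it at an unadjusted p under 0.05. The smallest adjusted p of a member in that fit was 0.11 from limma-voom, for ENSGALG00000035239, with a log2 difference of -0.65 (standard error 0.14). With 3 libraries against 3, an exact permutation test of a single gene cannot go below p = 0.1.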

How the data were processed

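Reads were mapped by the authors to the galGal5 build using HISAT2, with gene models of Ensembl release 87 and the systemPipeR package, and the table they deposited holds RPKM for each gene. The authors' own comparison used edgeR. The counting program and strand setting are unnamed in the sources used here, so overlapping or near-identical genes may share reads. The members and lists were chosen with earlier results of these data known.

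Library totals, gene model lengths and reads were recovered from the RPKM: low values of a gene are whole multiples of 1 read, and the smallest whole length at which all 6 values were whole within 0.001 read was taken. The recovered reads came to 98.8% to 99.2% of the totals. Where all 6 read numbers of a gene share a factor, its length and reads come out too small by that factor. Whether single reads or pairs were counted is likewise unstated. The rule for named genes took list members, the widest gaps, the 8 highest means, members at 0 with FGF2 and those at the edge; for lack of names it left 2 IDs and the lists were not used. Members ranked 13, 14, 15, 53 and 68 were picked after their values were seen.

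The test of FGF2 against PBS was that of limma 3.58.1 in R 4.3.3 (two-sided, eBayes with trend, Benjamini-Hochberg), fitted to log2(RPKM + 0.5) over genes that averaged 0.5 RPKM or more. A fold change on this scale understates that of low genes. The methods were run on simulated libraries that were drawn independently, with changes only in genes with many reads. That run does not cover changes in genes with few reads or the pairing of libraries. For the block, libraries with the same number were taken as 1 experiment, which the labels do not state: their deviations from the treatment means correlated across 13381 genes at 0.44, 0.28 and 0.40, each above the limit of 0.1. The p-values measure the spread between pools of limbs. Alternatives were other pseudocounts, filters, scalings, gaps, the replicate block, limma-voom on recovered reads, and leaving out each library. The rule for IDs asked for the widest gap above 5 RPKM, which 2 members at 0 with FGF2 shared through division by 0; that with the larger smallest PBS value was taken, after the values were seen.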

Additional observations from a re-analysis of the deposited data

How the results depend on the processing

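The count of 0 lower genes at an adjusted p under 0.05 held under every alternative run except the replicate block in limma-voom on the recovered reads, which gave 26. At an unadjusted p the 118 lower genes became 197 with median-ratio scaling, 211 with quantile normalization, 370 with the replicate block, 571 when median-ratio scaling was added to the block, 424 with limma-voom and the block, and 84 to 254 when single libraries were left out (FGF2 library 1 out gave 254, FGF2 library 2 out gave 204 and PBS library 2 out gave 204). The 71 members became 144 with a gap of 1.1, 36 with a gap of 1.5, 47 with a mean of at least 2 RPKM and 124 after median-ratio scaling. Leaving out a library loosens the rule by construction and gave 164 to 448 genes, with the most without FGF2 library 1. Other causes were not tested. A floor of 0.5 RPKM (90 genes) and 0.5 RPKM added to each value (59) stayed within 1.5 times. The median log2 difference of the members, -1.45, ran from -1.66 to -1.13 over the other pseudocounts, scaling and left-out libraries. The block in limma cannot change it in this balanced design. In limma-voom on the recovered reads the median was -1.77, and -1.70 with the block. ENSGALG00000035239 and ENSGALG00000025337 kept their direction, which the rule fixes (-0.74 to -0.47 and -6.35 to -2.82), and passed the adjusted threshold in none of these settings (adjusted p of 0.11 to 1 and 0.38 to 1 from limma and limma-voom). The low members rested on the fewest reads. Below 5 RPKM the fewest reads in a PBS library had a median of 12, against 135.5 at 10 RPKM or more. In PBS library 1, 3 reads in 1 kilobase are 0.574 RPKM.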
